A study of Mus musculus with 6 samples.

Results

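Neutrophils fill their granules in stages. Myeloperoxidase, elastase and the other primary granule enzymes are made by early precursors, and lactoferrin, cathelicidin, lipocalin 2 and the granule metalloproteinases are made later, as the cells mature and stop dividing. The later proteins bind iron, kill bacteria or cut matrix, and C/EBP transcription factors are known to drive many of their genes. Described here are 9 such genes, Lcn2, Ltf, Camp, Ngp, Mmp8, Mmp9, S100a8, S100a9 and Chil3. They were chosen by name, with earlier results of these data known. All 9 had a probe set annotated to that gene alone, 10 probe sets in all because Mmp9 had 2, among 12393 genes and 20380 probe sets used.

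RNA of mouse bone marrow cells was measured on 6 Affymetrix arrays after knockdown of Rad21, a subunit of the cohesin ring. Lineage-depleted marrow of C57/BL6 mice, 6 to 8 weeks old, received a lentivirus carrying no hairpin (empty vector), Rad21 shRNA1 or Rad21 shRNA2, with 2 arrays for each of the 3 groups. All cells, controls included, passed through 24 h of infection, puromycin at 1 µg/mL, a sort of live cells and 7 days in methylcellulose with cytokines that the labels do not name. The labels do not say whether the 2 replicates of a group came from separate cultures or animals, so a p-value here reflects how far the arrays of a group differ, and that may be technical variation alone. The comparisons with empty vector share its 2 arrays. Each sample is bulk RNA of a mixed myeloid culture, in which fewer cells of a type and less RNA per cell cannot be told apart. Markers of other lineages were present beside the neutrophil genes: averaged over each list, log2 intensities were 8.97 to 9.85 for 19 monocyte and macrophage genes, 9.30 to 11.14 for 12 mast cell and basophil genes and 7.54 to 8.35 for 7 eosinophil genes.

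Levels are log2 values of the authors' RMA intensities, and a difference of 1 is a 2-fold change. A gene is represented by its probe set with the highest mean, and a gene passed when its limma adjusted p, taken over all 12393 genes, was under 0.05. On its brightest probe set Rad21 read 11.14 and 10.49 with empty vector, 9.63 and 9.14 with shRNA1, and 9.50 and 9.11 with shRNA2. Its mean over both shRNAs differed from control by -1.47 ± 0.26 (SE; n = 4 and 2; limma adjusted p = 0.0558, or 0.0166 with the replicate number as a block, range over all alternatives 0.00721 to 0.203). Other Rad21 probe sets gave -1.78 ± 0.40 and only -0.43 ± 0.29 (limma adjusted p = 0.125 and 0.535 over all 20380 probe sets). In the latter the shRNA arrays overlapped with the controls. Empty-vector replicate 1 stood apart in quality: its Gapdh 3′ control probe set was 2.42 above the 5′ one, against -0.078 to 0.017 elsewhere. Erythroid genes averaged 8.95 on that array and 6.62 to 7.24 on the other 5. The spread within groups (root mean square over genes) was 0.32 for empty vector, 0.15 for shRNA1 and 0.14 for shRNA2, while the fit assumes the same spread for all groups.

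The stretches of DNA just before the starts of 5 of these genes are shown because their levels carry the results. Each is the 250 bases before the RefSeq start (GRCm38.p6), 5′ to 3′ on the gene's strand. Capitals mark the C/EBP-type letters TTGCNNAA (TTNNGCAA on the other strand, N being any base) and the Ets-type letters GAGGAA, which read as TTCCTC on the other strand. No C/EBP-type match overlapped an Ets-type one.
Lcn2 (chr2:32387740-32387989, minus strand): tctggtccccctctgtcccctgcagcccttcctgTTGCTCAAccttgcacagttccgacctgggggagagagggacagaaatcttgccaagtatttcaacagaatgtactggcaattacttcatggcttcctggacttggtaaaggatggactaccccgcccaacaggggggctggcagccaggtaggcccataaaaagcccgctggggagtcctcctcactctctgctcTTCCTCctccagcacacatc
Ltf (chr9:111019042-111019291, plus strand): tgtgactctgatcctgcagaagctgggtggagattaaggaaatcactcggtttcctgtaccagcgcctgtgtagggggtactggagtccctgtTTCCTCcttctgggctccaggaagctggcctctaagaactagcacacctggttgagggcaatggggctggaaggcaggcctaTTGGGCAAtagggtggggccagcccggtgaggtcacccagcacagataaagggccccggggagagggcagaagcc
Camp (chr9:109849457-109849706, minus strand): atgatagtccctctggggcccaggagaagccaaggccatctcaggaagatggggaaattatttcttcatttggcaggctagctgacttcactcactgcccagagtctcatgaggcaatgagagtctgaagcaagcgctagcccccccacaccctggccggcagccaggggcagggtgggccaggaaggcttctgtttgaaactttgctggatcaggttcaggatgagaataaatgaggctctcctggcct
Ngp (chr9:110419558-110419807, plus strand): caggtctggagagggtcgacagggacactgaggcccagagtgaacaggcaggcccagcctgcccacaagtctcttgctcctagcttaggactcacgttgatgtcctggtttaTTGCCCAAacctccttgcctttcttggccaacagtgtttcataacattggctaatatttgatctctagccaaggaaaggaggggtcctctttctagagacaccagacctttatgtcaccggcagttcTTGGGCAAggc
Mmp8 (chr9:7558179-7558428, plus strand): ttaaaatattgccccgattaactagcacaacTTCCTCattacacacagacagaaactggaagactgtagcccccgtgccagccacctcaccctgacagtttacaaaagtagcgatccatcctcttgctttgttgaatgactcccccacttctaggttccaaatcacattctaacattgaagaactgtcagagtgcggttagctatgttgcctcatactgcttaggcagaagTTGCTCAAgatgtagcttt

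RefSeq gave such a stretch for 8 of the 9 genes. The C/EBP-type letters stood in 5 of these 8 (Lcn2, Ltf, Ngp, Mmp8 and S100a9) and in 9.56% of all 32851 promoters of the same length. Ngp held 2 matches, one of them 11 to 4 bases before the start, and Ltf held 1, 75 to 68 bases before it. The Ets-type letters stood in 4 of the 8 (Lcn2, Ltf, Mmp8 and S100a8), against 23.3% of all, and the TATA box letters TATAAA, on either strand, in S100a8 alone, against 12.4% of all. A match is a run of letters and was not tested as a binding site.

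Against empty vector, Lcn2 rose with either shRNA, and it was the only one of the 9 genes past the threshold for both shRNAs together, for shRNA1 and for shRNA2. That count of 1 in 9 stands beside 0.734% of all genes rising for both shRNAs, 0.0968% for shRNA1 and 0.88% for shRNA2. None of the 9 fell, against 1.4%, 0.137% and 1.95% of all genes. In 6 of the 9, namely Lcn2, Ltf, Camp, Ngp, S100a8 and S100a9, all 4 shRNA arrays lay above both empty-vector arrays, which was so for 11.5% of all genes. In none did all 4 lie below both, against 13.6% of all genes. These counts take each gene's brightest probe set, and on the dimmer Mmp9 set all 4 lay below both. The median difference of the 9 genes was 0.93 for both shRNAs together and -0.023 over all genes. Because the 9 were chosen with earlier results of these data known, these contrasts with all genes are descriptive only.

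**Figure D1:**
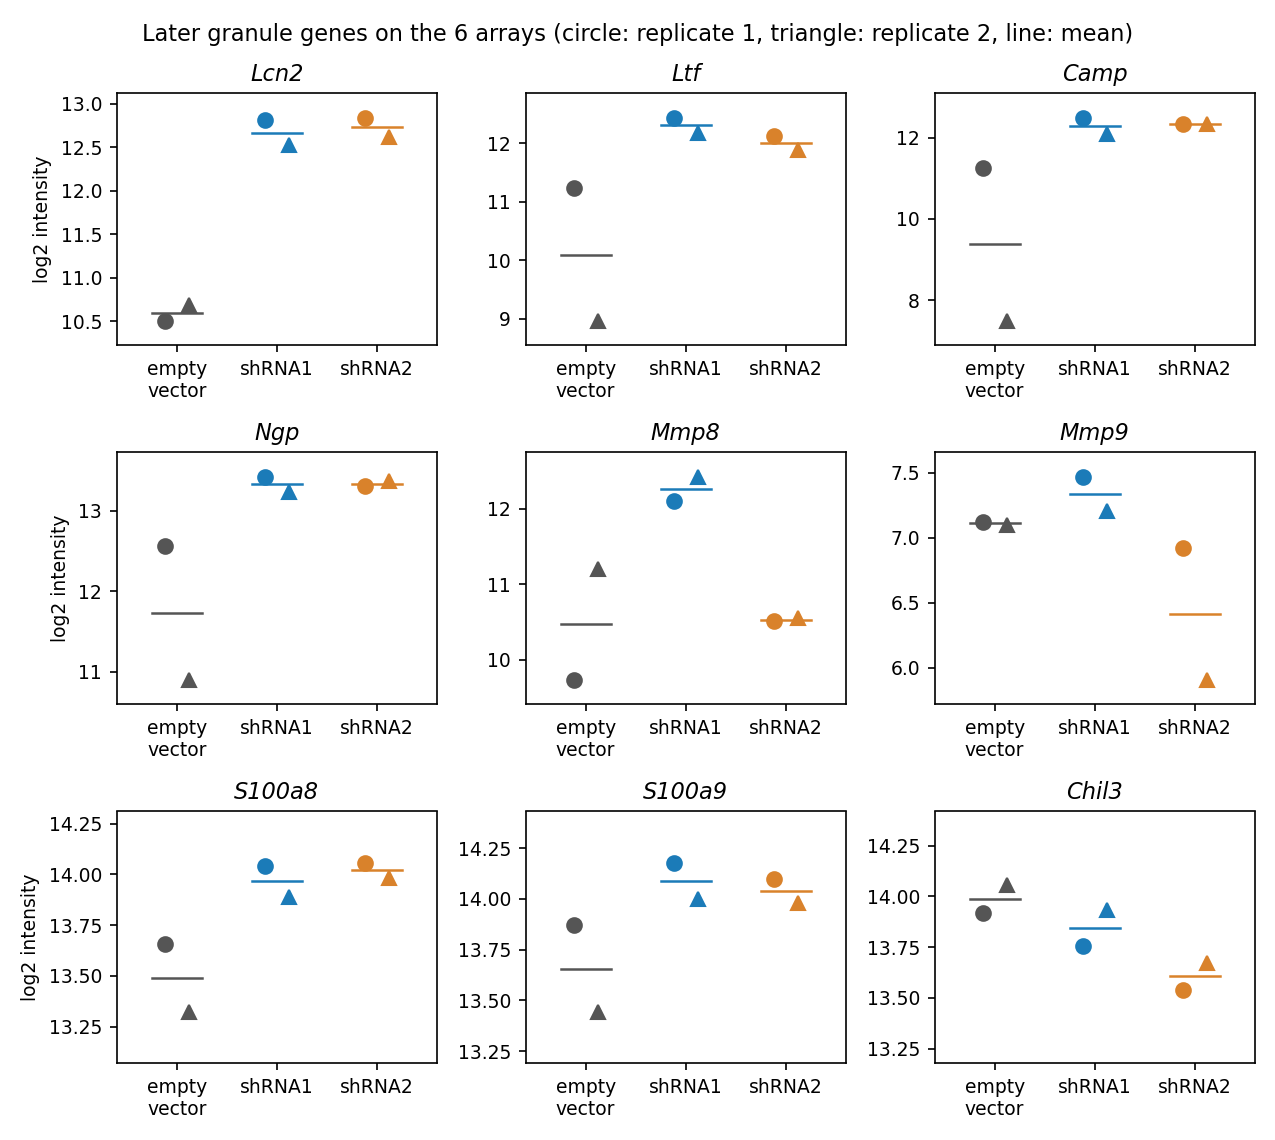
Log2 intensity (vertical axis, own range in each panel) of the 9 genes in the empty-vector, shRNA1 and shRNA2 groups, with circles for replicate 1, triangles for replicate 2 and a line at the group mean. Lcn2 cleanly separates the shRNA arrays from the empty-vector arrays, Ltf, Camp and Ngp are apart on the 2 empty-vector arrays, and Mmp8 is high with shRNA1 only.

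Lcn2 encodes lipocalin 2, which captures the iron-carrying siderophores of bacteria. It read 10.51 and 10.69 with empty vector, 12.81 and 12.52 with shRNA1, and 12.84 and 12.62 with shRNA2. The control arrays lay close together, the shRNA arrays lay close together, and the lowest shRNA array was 1.83 above the higher control. Both shRNAs together gave a difference of 2.10 ± 0.16, or 4.28-fold (limma adjusted p = 0.00832, range 0.00280 to 0.0606). shRNA1 alone gave 2.07 ± 0.18 (limma adjusted p = 0.0333, range 0.00502 to 0.363) and shRNA2 alone 2.13 ± 0.18 (0.00998, range 0.00347 to 0.122). The call for both shRNAs was lost without shRNA1 replicate 1 (2.03, adjusted p = 0.0564) and without shRNA2 replicate 1 (2.04, adjusted p = 0.0606). The difference itself stayed between 2.00 and 2.19 whichever array was left out.

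Ltf encodes lactoferrin, the iron-binding protein of the specific granules. Its levels were 11.23 and 8.97 with empty vector, 12.43 and 12.18 with shRNA1, and 12.13 and 11.89 with shRNA2. All shRNA arrays were above both controls, but the controls were 2.27 apart and the shRNA replicates 0.25 and 0.23. The difference for both shRNAs was 2.06 ± 0.59, or 4.17-fold, and did not pass (limma adjusted p = 0.170, 0.0133 unadjusted). It was 2.21 ± 0.68 for shRNA1 and 1.91 ± 0.68 for shRNA2 (limma adjusted p = 0.384 and 0.224).

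Camp encodes the cathelicidin precursor, from which an antimicrobial peptide is cut. It read 11.26 and 7.49 with empty vector, 12.49 and 12.08 with shRNA1, and 12.33 and 12.34 with shRNA2. The shRNA arrays agreed to within 0.41, while the controls were 3.77 apart, a gap that only 4 of 12393 genes reached, Camp included. Its difference was 2.94 ± 0.96 for both shRNAs, or 7.66-fold, and did not pass (limma adjusted p = 0.214, 0.0230 unadjusted). The single shRNAs gave 2.91 ± 1.11 and 2.96 ± 1.11 (limma adjusted p = 0.497 and 0.247).

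Ngp, neutrophilic granule protein, belongs to the cathelicidin-related family. It stood at 12.56 and 10.90 with empty vector, 13.42 and 13.23 with shRNA1, and 13.31 and 13.37 with shRNA2. The pattern was that of Ltf and Camp, with the shRNA arrays together at the top and empty-vector replicate 2 lowest. For both shRNAs the difference was 1.60 ± 0.44, or 3.03-fold (limma adjusted p = 0.156, 0.0111 unadjusted), and for each shRNA it was 1.60 ± 0.51 (limma adjusted p = 0.408 for shRNA1 and 0.180 for shRNA2).

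The size of the difference in these 3 genes turned on the control array. Against empty-vector replicate 1 the mean of the 4 shRNA arrays was higher by 1.05 for Camp (2.07-fold), 0.93 for Ltf (1.90-fold) and 0.77 for Ngp (1.70-fold). Against replicate 2 it was higher by 4.82 for Camp (28.3-fold), 3.19 for Ltf (9.15-fold) and 2.43 for Ngp (5.41-fold). Each of the 3 passed when either control array was left out, but many more of all genes passed in those fits than in the full fit, most of all without replicate 2. In those fits the lone control array is assumed to vary like the shRNA arrays, so the gap between the controls no longer counts. The part of the quality and erythroid readings of replicate 1 in these results was not tested. With an shRNA array left out the adjusted p of the 3 lay between 0.316 and 0.563. Lcn2 did not share this: its difference was 2.19 against replicate 1 and 2.00 against replicate 2.

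**Figure D2:**
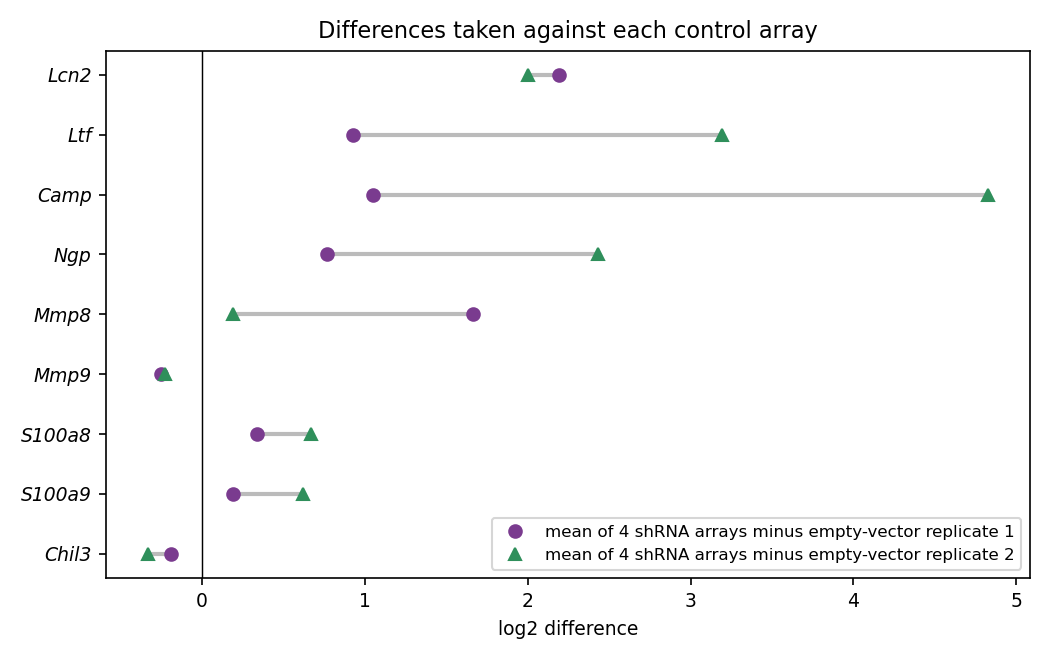
Mean of the 4 shRNA arrays minus a single control array on the log2 scale (horizontal axis), with circles for empty-vector replicate 1 and triangles for replicate 2. The grey bar is the gap between the 2 controls, 3.77 for Camp and 0.19 for Lcn2.

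S100a8 and S100a9 encode the 2 chains of calprotectin, a calcium- and zinc-binding protein of the cytosol of neutrophils and monocytes. S100a8 read 13.65 and 13.32 with empty vector, 14.04 and 13.89 with shRNA1, and 14.06 and 13.98 with shRNA2. S100a9 read 13.87 and 13.44 with empty vector, 14.18 and 14 with shRNA1, and 14.10 and 13.98 with shRNA2. In both genes all 4 shRNA arrays lay above both controls, as in 11.5% of all genes, and the lowest shRNA array was 0.24 and 0.11 above the higher control. The 2 shRNA groups overlapped. Their differences were 0.50 ± 0.15 (1.42-fold, limma adjusted p = 0.189) and 0.41 ± 0.17 (1.33-fold, 0.312), and neither passed. These probe sets lie near the top of the table, whose highest value was 14.33, and saturation could not be tested on summarised values. The S100a8 set also carries the suffix that Affymetrix uses for probes shared by several transcripts.

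Mmp8, the neutrophil collagenase, was high with shRNA1 and within the range of the controls with shRNA2. It stood at 9.73 and 11.20 with empty vector, 12.10 and 12.42 with shRNA1, and 10.51 and 10.55 with shRNA2. Both shRNA1 arrays were above every other array, and both shRNA2 arrays lay between the 2 controls. shRNA1 minus empty vector was 1.79 ± 0.46, or 3.46-fold (limma adjusted p = 0.270, range 0.00408 to 0.999), and shRNA2 minus empty vector 0.063 ± 0.46 (0.972, range 0.0316 to 0.993; 95% interval -1.07 to 1.19). Without empty-vector replicate 1 the shRNA1 difference was 1.06 and that of shRNA2 -0.67. Without replicate 2 they were 2.53 and 0.80. These fits rest on a lone control array, and many of all genes passed without replicate 2, so no call of Mmp8 is read from them.

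Mmp9, gelatinase B of the tertiary granules, was measured by 2 probe sets that did not agree on shRNA1. The brighter one read 7.12 and 7.10 with empty vector, 7.47 and 7.20 with shRNA1, and 6.92 and 5.91 with shRNA2. The other read 7.12 and 7.03 with empty vector, 6.70 and 6.77 with shRNA1, and 6.40 and 5.87 with shRNA2. Both sets were lowest on shRNA2 replicate 2, and the dimmer one was below both controls on every shRNA array. For both shRNAs the differences were -0.24 ± 0.29 on the brighter set (limma adjusted p = 0.754; 95% interval -0.95 to 0.48) and -0.64 ± 0.18 on the other (0.203 over all 20380 probe sets). For shRNA2 they were -0.70 and -0.94, and for shRNA1 0.23 and -0.34, none past the threshold.

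Chil3, also called Ym1, is a chitinase-like lectin of neutrophil granules and of macrophages. It read 13.92 and 14.06 with empty vector, 13.76 and 13.93 with shRNA1, and 13.54 and 13.67 with shRNA2. The shRNA2 arrays were lowest, shRNA1 overlapped with control, and the difference for both shRNAs was -0.26 ± 0.14 (limma adjusted p = 0.414; 95% interval -0.60 to 0.076). A set shared by Chil3 and its close relative Chil4 was kept out of the tests and read between 13.35 and 14.33. Chil4's own set ranged from 6.29 to 10.58 and differed by -3.33 between empty-vector replicates 1 and 2, where the Chil3 set differed by -0.14. Whether Chil4 transcripts add to the signal of the Chil3 set was not tested.

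Between the 2 hairpins none of the 9 genes passed by limma, as was so for 0% of all genes in either direction. At an unadjusted p under 0.05 there were 2 of the 9, Mmp8 and Mmp9, against 4.89% of all genes. In 4 of the 9 (Ltf, Mmp8, Mmp9 and Chil3) both shRNA1 arrays were above both shRNA2 arrays, against 17.7% of all genes. Mmp8 was 1.73 ± 0.46 higher with shRNA1 (3.32-fold, limma adjusted p = 0.674, 0.00965 unadjusted) and Mmp9 0.92 ± 0.33 higher (1.90-fold, limma adjusted p = 0.909; 0.42 without shRNA2 replicate 2 and 1.43 without shRNA2 replicate 1). The Mmp8 difference passed without either empty-vector array, as did some of all genes, although those arrays enter this comparison only through the common spread. Lcn2 differed by -0.062 (95% interval -0.51 to 0.39), Camp by -0.051 (-2.79 to 2.68) and Ngp by -0.0068 (-1.25 to 1.24), so the intervals for Camp and Ngp leave room for a change of more than 2-fold either way.

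**Figure D3:**
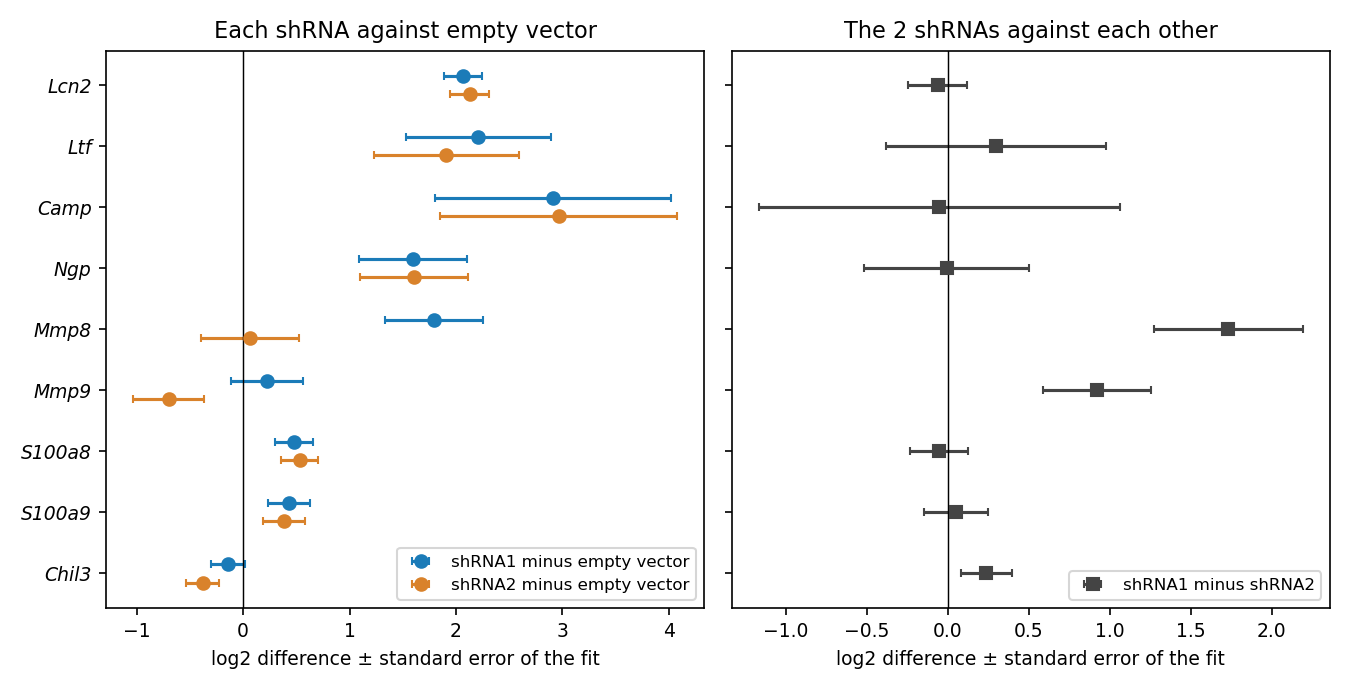
Log2 differences of the 9 genes with the standard error of the limma fit: each shRNA minus empty vector on the left, shRNA1 minus shRNA2 on the right (n = 2 arrays a group). Lcn2 has the shortest bars among the genes above 1 on the left, and Mmp8 and Mmp9 are farthest from 0 on the right.

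Macrophage genes mostly read higher with shRNA1 than with shRNA2, as did Ltf, Mmp8, Mmp9 and Chil3, though none of these differences passed. This order was not particular to macrophage genes. Of 31 other genes of late neutrophils, 24 had a higher mean with shRNA1 (median difference 0.41, none past the threshold), against 2 of 9 primary granule genes. Of 19 macrophage and monocyte genes, 18 had a higher mean with shRNA1, against 45.0% of all genes, none past the threshold by limma and 7 at an unadjusted p under 0.05. The list averaged 9.34 and 9.83 with empty vector, 9.85 and 9.83 with shRNA1, and 8.97 and 9.01 with shRNA2. Against empty vector 2 of the 19 rose and 2 fell for both shRNAs together, against 0.734% and 1.4% of all genes. F13a1, a monocyte transglutaminase, rose by 2.30 ± 0.19 and the IgG receptor Fcgr1 by 2.51 ± 0.27. The lipid scavenger Cd36 was at -2.94 ± 0.34 and Marco at -2.09 ± 0.32 (limma adjusted p of the 4 from 0.00942 to 0.0412). Each of these 4 calls was lost with an shRNA array left out, at adjusted p up to 0.0655, 0.0978, 0.108 and 0.166, and that of Marco also with the replicate block (0.0514). With shRNA1 alone 1 rose and none fell, against 0.0968% and 0.137% of all genes. With shRNA2 alone 2 rose and 4 fell, against 0.88% and 1.95% of all genes. Among the 4 were the mannose receptor Mrc1 (-2.64, limma adjusted p = 0.0273) and the scavenger receptor Msr1 (-1.67, limma adjusted p = 0.0211). The part of these cells in the levels of the granule genes was not tested.

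Among the primary granule genes were some with larger differences than any of the 9 later ones, such as Mpo, and others near 0. Of 9 measured, 6 rose for both shRNAs together, against 0.734% of all genes. Their median difference over the 9 was 2.53, against 0.93 for the later genes. Elane, neutrophil elastase, read 5.76 and 5.78 with empty vector, 10.31 and 9.81 with shRNA1, and 11.20 and 11.68 with shRNA2, a difference of 4.98 ± 0.21 (limma adjusted p = 0.00293). Mpo, Prtn3 and Ms4a3 differed by 5.34, 4.93 and 4.15 (limma adjusted p from 0.00813 to 0.0365, and up to 0.0748, 0.0525 and 0.157 with an shRNA array left out). At the other end Cst7, Ctsc and Serpinb1a were at 0.82, 0.35 and -0.20, none past the threshold. In Elane, Mpo, Prtn3 and Ms4a3, shRNA2 was above shRNA1, by 1.31 to 1.71, the opposite order to Mmp8, though none of these gaps passed (limma adjusted p from 0.320 to 0.999). The difference between the 2 gene groups was not tested, since their members were chosen with earlier results known.

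**Figure D4:**
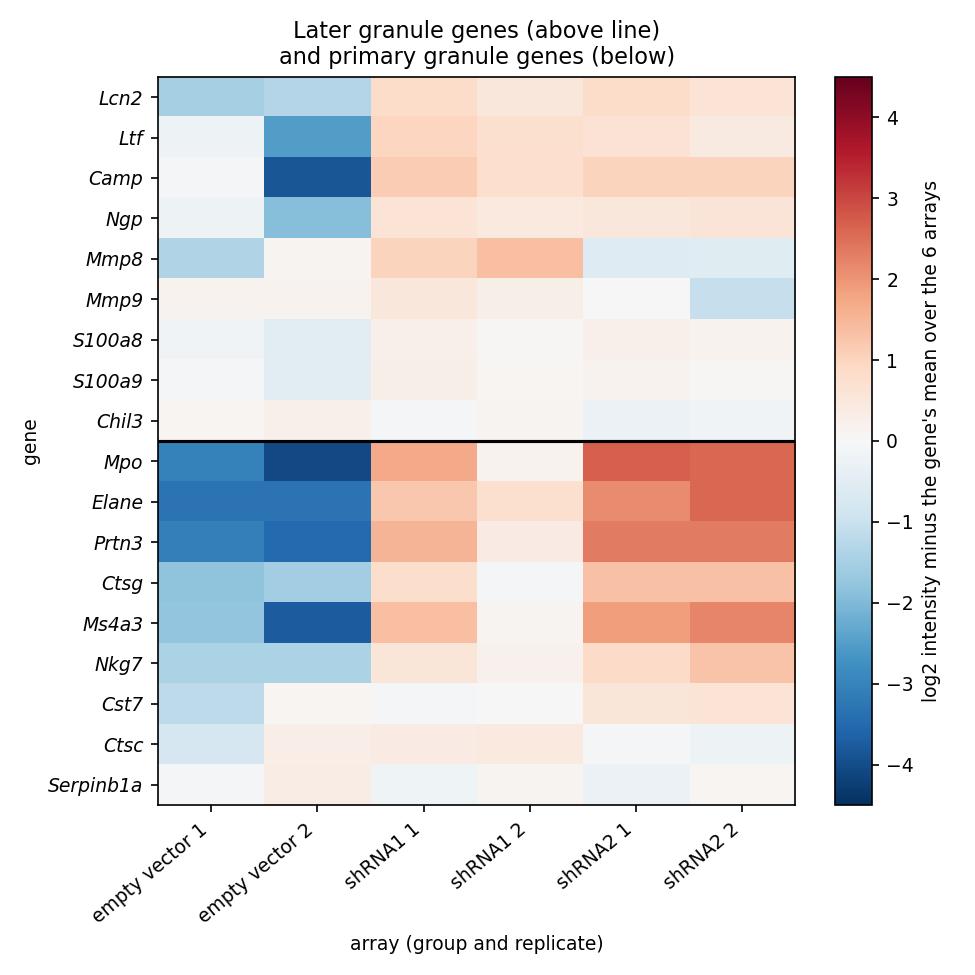
Log2 intensity minus the gene's mean over the 6 arrays (colour) for 9 later granule genes above the line and 9 primary granule genes below it, with a column for each array. Among the later genes the 2 empty-vector columns differ most in Camp, while Elane is equally low in both.

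Other genes of late neutrophils ranged widely. Of 40 listed, 31 were measured and 23 had positive differences, as did 46.4% of all genes, with a median of 0.28. All 4 shRNA arrays lay above both controls in 10 and below both in 2, against 11.5% and 13.6% of all genes. The calls that follow stand beside 0.734% of all genes rising and 1.4% falling. By limma 1 rose, Lrg1, a secreted glycoprotein of neutrophil granules, by 1.19 ± 0.19 (adjusted p = 0.0443, range 0.00346 to 0.204), and 1 fell, the metalloproteinase Adam8, by 1.35 ± 0.17 (adjusted p = 0.0285, range 0.00741 to 0.157). Haptoglobin (Hp) read 9.98 and 8.00 with empty vector and 11.63 to 12.74 on the shRNA arrays, a difference of 3.32 that missed the threshold (limma adjusted p = 0.0522). Hp and Cd177 (9.65 and 7.40 with empty vector), both named through their likeness to member genes, were lower on empty-vector replicate 2, as Ltf and Camp were. Others of the list, chosen after their values were seen, were lower on replicate 1, such as the oxidase subunit Cybb (4.86 and 8.40), the integrin Itgb2 (11.13 and 12.74) and Orm1 (5.05 and 6.92). Cybb had a difference of 3.38, above that of any of the 9 genes, and did not pass (limma adjusted p = 0.157). The mean of the list was 9.36 on replicate 1 and 9.61 on replicate 2.

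Likeness of pattern was taken as the root mean square distance between centred log2 profiles over the 6 arrays, among 3063 genes that spanned at least 1. Nearest to Lcn2 were Ankrd22 (0.14), Slc6a13 (0.18) and Itgb2l (0.19), with differences for both shRNAs of 2.14, 2.34 and 1.93. They were picked for likeness to Lcn2 on the same arrays, so their passing the threshold is no separate result. Nearest to Ltf were Cd177 (0.23), Ngp (0.32) and Id3 (0.33), and nearest to Camp were Hp (0.60), Ltf (0.62) and Cd177 (0.77). Ngp lay nearest to Mgarp (0.20), Plod2 (0.23) and Cd177 (0.27). Mmp8 lay nearest to Pld4 (0.33), Snhg11 (0.33) and C1ra (0.43), and Mmp9 to Sdc4, Zfp36l1 and Nrp2 (0.15 to 0.16). Ltf and Camp each had one of the 9 genes among their nearest 3, and Ngp, Lcn2, Mmp8 and Mmp9 had none.

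Transcription factors of granulocytes and of other blood lineages were measured for 14 of 15 listed. The factor C/EBP epsilon, known as a driver of specific granule genes, was not analysed here. For both shRNAs 1 fell, the macrophage-associated factor Egr2, by 1.57 ± 0.17 (limma adjusted p = 0.0183, range 0.00670 to 0.103), and none rose, with a list median of -0.44. Over all genes 1.4% fell and 0.734% rose. Of the 14, 4 had positive differences, and Gfi1 had the largest difference of the list, 1.91 ± 0.46, which did not pass (limma adjusted p = 0.116). Gfi1 read 6.05 and 7.45 with empty vector, 8.39 and 8.00 with shRNA1, and 8.63 and 9.64 with shRNA2. On the negative side were also Egr1 (-1.37), Gata1 (-1.17), Klf4 (-1.13) and Gata2 (-0.98), none past the threshold. The C/EBP genes that were measured, chosen like these after their values were seen, were Cebpa at -0.30, Cebpb at -0.73 and Cebpd at 1.10, none past the threshold for both shRNAs together (limma adjusted p from 0.0706 to 0.629). With shRNA2 alone Cebpb fell, at -1.25 ± 0.16 (limma adjusted p = 0.0252), while with shRNA1 it was at -0.21 (adjusted p = 0.741).

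Receptors, partners and inhibitors of the gene products had differences spread around 0. Among 14 receptors and inhibitors, 1 fell for both shRNAs, against 1.4% of all genes. This was Timp2, an inhibitor of metalloproteinases. Timp2 read 10.60 and 11.10 with empty vector, 9.11 and 9.41 with shRNA1, and 7.92 and 7.67 with shRNA2. Its difference was -2.32 ± 0.20 (limma adjusted p = 0.0109, range 0.00310 to 0.0679), and the list median was -0.0090. Among 11 other S100 genes limma called none, only S100a4 had an unadjusted p below 0.05 (0.54 ± 0.19, adjusted p = 0.236), and the median was -0.056. Of 3 chitinase-like genes beside Chil3 none passed or reached an unadjusted p under 0.05, with Chil1 at 0.99 and Chil4 at -0.96 (limma adjusted p = 0.469 and 0.669). Without empty-vector replicate 1 Chil4 was at -2.63, and without replicate 2 it was at 0.71.

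By position in the RefSeq gene table, 4 of the genes lie on chromosome 9, 3 on chromosome 3 and 2 on chromosome 2. Camp and Ngp have 8 protein-coding genes between them, Ngp and Ltf have 20, and S100a8 and S100a9 are direct neighbours. The 2 nearest measured coding genes on each side of every member gave 32 genes that are no members. Of these 1 fell and none rose by limma for both shRNAs, against 1.4% and 0.734% of all genes. The 1 that fell was Slc12a5 beside Mmp9 (-0.95 ± 0.14, limma adjusted p = 0.0384), and the median difference of the 32 was -0.097. The genes flanking Camp, Nme6 and Cdc25a, were at 0.50 each, those flanking Ltf, Rtp3 and Ccrl2, at -0.31 and 0.59, and those flanking Lcn2, 1110008P14Rik and Ptges2, at -0.092 and 0.10, none past the threshold.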

How the data were processed

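Per the submitters' processing notes the authors made the deposited intensity values with RMA, which corrects background, quantile-normalizes arrays and summarises each probe set; no source used here gives its version or a genome build. Values ran from 4.96 to 20614.6, so they are linear, and log2 was taken with no pseudocount, filter or further normalization. RMA as usually run brings all arrays to a common distribution, so a change in total RNA cannot be seen, and 6 arrays limit the precision. Platform annotation named 20393 of 22690 probe sets with 1 gene, 691 with several and left 1606 unlisted; 13 named ones were Affymetrix controls and were dropped. limma 3.58.1 (R 4.3.3) fitted 3 groups (lmFit, eBayes; 3 residual and 2.91 prior degrees of freedom), two-sided, with Benjamini-Hochberg adjustment over 12393 genes. It was tested on simulated arrays with the same spread in all groups, so the unequal spread of the groups here was not covered. Replicate numbers come from the titles; deviations of same-numbered arrays correlated at 0.20, 0.15 and 0.58 over genes between the 3 pairs of groups, so the number was read as a block in an alternative. Alternatives were leaving out each array, the block, dropping the dimmer 50% of genes, the mean of a gene's probe sets, 2 scalings and 2 variance models. Members and lists were chosen with earlier results of these data known. Named genes were all members, up to 4 passing genes of a list or else the 2 with the smallest p, and the 3 nearest profiles of a member spanning 1 or more; the gene neighbours and promoter letters were chosen after the data were seen. Promoters are RefSeq's. Python 3.11.15, pandas 2.3.3 and matplotlib 3.10.9 made the tables and plots.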

Additional observations from a re-analysis of the deposited data

Results flagged for a closer look

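Mmp9 was flagged because its brighter probe set lay above both empty-vector arrays on both shRNA1 arrays and below both on both shRNA2 arrays. The direct comparison of the hairpins gave 0.92 ± 0.33 (limma adjusted p = 0.909, range 0.356 to 1.00 over the alternatives; 0.42 without shRNA2 replicate 2 and 1.43 without shRNA2 replicate 1), so the opposite directions were not borne out by the test. The other Mmp9 set was below both controls on all 4 shRNA arrays.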

How the results depend on the processing

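With 1 array left out at a time, members past the threshold numbered 0 to 5 for both shRNAs together, for shRNA1 and for shRNA2 (1 in each with all arrays), and 0 to 1 between the hairpins (0 with all arrays). Listed genes that are no members numbered 1 to 57 in those fits (17 with all arrays), and all genes 3 to 3121 (264) for both shRNAs, 0 to 2534 (29) for shRNA1, 0 to 2941 (351) for shRNA2 and 0 to 44 (0) between the hairpins. The highest counts came without an empty-vector array and the lowest without an shRNA array. Leaving out the dimmer 50% of genes removed Mmp9, left 0 members for shRNA1 (Lcn2 adjusted p = 0.0635), 113 of all genes for both shRNAs, 3 for shRNA1 and 180 for shRNA2. With centring on array medians or an intensity trend shRNA1 had 47 and 59 genes. The replicate block changed no member's call, with 288 genes for both shRNAs, and put Rad21 past the threshold (-1.47). Outside these and the fits without an array, no count of members moved; in the fit over 20380 probe sets Lcn2 was the only member called for both shRNAs (adjusted p = 0.0145) and missed for shRNA1 (0.0567).

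Signs turned only in differences near 0, or where 1 array decided them. Mmp9 was -0.056 for shRNA1 with the mean of its probe sets. Without single arrays Mmp9 ranged from -0.49 to 0.017 for both shRNAs, Mmp8 from -0.67 to 0.80 for shRNA2 and Chil4 from -2.63 to 0.71 for both shRNAs. Between the hairpins the ranges were -0.26 to 0.15 for Camp, -0.10 to 0.087 for Ngp (0.011 with quantile normalization), -0.21 to 0.080 for Lcn2, -0.13 to 0.022 for S100a8, -0.038 to 0.14 for S100a9 and -0.17 to 0.32 for Rad21. The scalings moved the median of all genes by at most 0.013.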
